A study of Mus musculus with 12 samples.

Results

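The 10 genes described here encode the signalling chains of activating natural killer (NK) cell receptors and the first enzymes and scaffold those chains engage. They were chosen by symbol as Tyrobp, Fcer1g, Cd247 and Hcst (adaptors), Fcgr3 and Ncr1 (receptors), Syk, Zap70 and Lck (kinases) and Lat (scaffold), and each matched 1 of the 55487 features in the deposited table. All 10 passed the filter on low values, a log2 CPM (reads per 1 M reads of the library, on a log2 scale) above 0 in at least 4 of 12 libraries, which 12364 features passed.

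RNA-seq was done on natural killer cells of mice whose genotype is given as mut/mut and whose strain is B6.129S4-Ifngtm3.1Lky/J. In this strain the interferon gamma gene carries a reporter that makes yellow fluorescent protein (YFP). Every group, the unstimulated one included, carried this genotype and was labelled HD IL-15, a cytokine that primes NK cells; the labels do not explain "HD". The 3 groups of 4 libraries were unstimulated cells, reporter-negative cells (YFP-) after 6 h with anti-NK1.1, and reporter-positive cells (YFP+) after the same 6 h with that antibody. The libraries of each group carry the labels f2, m2, m3 and m4, but it is not stated whether a label stands for 1 mouse, nor how old the animals were. As nothing says that the libraries came from separate animals or cultures, p-values measure only the spread between these libraries, which may be technical.

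Adaptors such as Tyrobp (DAP12), Fcer1g (the Fc receptor gamma chain) and Cd247 (CD3 zeta) carry immunoreceptor tyrosine-based activation motifs (ITAMs) in their cytoplasmic tails. When a receptor is cross-linked, Src family kinases such as Lck phosphorylate the ITAM tyrosines, and Syk or Zap70 docks there through its SH2 domains and passes the signal to scaffolds such as Lat. Hcst (DAP10) has no ITAM and instead recruits phosphoinositide 3-kinase and Grb2. Fcgr3 (the low-affinity IgG receptor CD16) signals through the gamma chain, Ncr1 (NKp46) through the gamma chain and Cd247, and NK1.1, the target of the antibody and the product of Klrb1c, through the gamma chain.

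Tyrobp (ENSMUSG00000030579) lies on chr7:30413760-30417585, plus strand, and its neighbour Hcst (ENSMUSG00000064109) on chr7:30417712-30419854, minus strand, so that their 3′ ends face each other with 126 bases between them. Fcer1g (ENSMUSG00000058715) is at chr1:171229572-171234365, minus strand, and Cd247 (ENSMUSG00000005763) at chr1:165788681-165877277, plus strand. Fcgr3 (ENSMUSG00000059498) is at chr1:171051174-171064935, minus strand, and Ncr1 (ENSMUSG00000062524) at chr7:4337724-4345164, plus strand. Among the kinases, Syk (ENSMUSG00000021457) is at chr13:52583173-52648792 and Zap70 (ENSMUSG00000026117) at chr1:36761798-36782818, both on the plus strand. Lck (ENSMUSG00000000409) is at chr4:129548344-129573641 and Lat (ENSMUSG00000030742) at chr7:126363824-126369570, both on the minus strand. All 10 positions are on GRCm38 from GENCODE M21 and span protein-coding genes.

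RefSeq promoter windows (GRCm38.p6) matched 9 of the 10 genes, all but Tyrobp. The 250 bases before the start are shown for the 3 adaptors that had a window, because these adaptors moved by different amounts. They are chr7:30419855-30420104 (minus strand, 52.4% G or C) for Hcst, chr1:171234350-171234599 (minus strand, 54.8%) for Fcer1g and chr1:165788431-165788680 (plus strand, 41.2%) for Cd247, against a median of 52.4% over all windows. Each is written 5′ to 3′ on the gene's strand, and capitals mark the ETS factor core GGAAG or its reverse complement CTTCC.
Hcst: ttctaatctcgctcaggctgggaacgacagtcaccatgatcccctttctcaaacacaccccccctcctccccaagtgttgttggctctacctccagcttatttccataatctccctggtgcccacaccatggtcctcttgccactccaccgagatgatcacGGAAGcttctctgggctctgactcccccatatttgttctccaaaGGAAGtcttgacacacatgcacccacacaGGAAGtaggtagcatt
Fcer1g: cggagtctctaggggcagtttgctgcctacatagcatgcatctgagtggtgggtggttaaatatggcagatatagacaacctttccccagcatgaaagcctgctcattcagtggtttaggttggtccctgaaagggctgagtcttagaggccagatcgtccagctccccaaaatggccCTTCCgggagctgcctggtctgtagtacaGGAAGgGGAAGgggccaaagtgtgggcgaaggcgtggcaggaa
Cd247: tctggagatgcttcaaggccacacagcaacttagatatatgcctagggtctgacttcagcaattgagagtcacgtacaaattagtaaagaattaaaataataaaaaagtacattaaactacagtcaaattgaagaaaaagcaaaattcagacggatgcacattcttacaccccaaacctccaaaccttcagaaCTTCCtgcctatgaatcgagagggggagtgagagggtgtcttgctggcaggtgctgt
The core occurred 3 times in the Hcst window, 3 times in the Fcer1g window and once in the Cd247 window. Over the genes with a window it was found in 7 of 9, beside 64.1% of 32851 windows of the same length. The RUNX motif TGTGGT, searched on both strands, was found in 2 of 9 (Ncr1 and Lck; 14.0% of all windows). The AP-1 motif TGANTCA was found in 0 of 9 (6.75% of all). A match describes letters in the window and is not evidence of a bound factor.

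Library totals ran from 32.4 to 39.8 M reads in unstimulated, 43.4 to 49.3 M in YFP- and 32.1 to 54.2 M in YFP+ libraries. Reads on rRNA-like features made up 27.4 to 35.3%, 15.9 to 30.3% and 13.7 to 29.8% of these totals. Pearson's r between libraries of a group was 0.974 to 0.985, 0.980 to 0.984 and 0.938 to 0.982. The YFP+ m3 library stood apart: it had the lowest weight when libraries were weighted by their fit (0.267, beside 0.506 to 2.27 for the others), and results that rest on it are given with and without it. All 13 genes of the NK marker list passed the filter, which does not mean that their levels held. Of those described below, Klrb1c and Ncr1 fell and Klrk1 rose in YFP+ against unstimulated cells (log2 −5.64, −1.01 and 0.33). Ifng, the gene that carries the reporter, was at 3.67 to 4.19 CPM without stimulation, and at 36.6 to 54.5 CPM in YFP- libraries against 303.8 to 343.4 CPM in YFP+ libraries. In bulk libraries, fewer cells of a type and less RNA per cell cannot be told apart.

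Most of the 10 genes were lower in stimulated than in unstimulated cells, and 5 of the 10 were lower in YFP+ than in YFP- cells. Against unstimulated cells, YFP- cells had 6 of the 10 genes lower and 0 higher at a limma adjusted p under 0.05 (Tyrobp, Fcer1g, Cd247, Hcst, Fcgr3 and Syk). Over all 12364 genes tested, 20.9% were lower and 30.2% higher in that comparison. YFP+ cells had 8 of the 10 lower and 1 higher (Lat) against unstimulated cells, beside 33.3% lower and 27.5% higher over all genes. Only Zap70 passed in neither direction there. Between the stimulated groups, YFP+ cells had 5 lower (Cd247, Fcgr3, Ncr1, Syk and Lck) and 1 higher (Lat) than YFP- cells, beside 18.5% lower and 3.28% higher over all genes.

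Over the 10 genes the median log2 difference was −0.57 in YFP- and −1.01 in YFP+ cells relative to unstimulated ones, and −0.64 in YFP+ relative to YFP- cells. Over all genes tested it was 0.14, −0.03 and −0.19. The last 2 comparisons share the YFP+ libraries, the first 2 the unstimulated ones, and the first and last the YFP- ones. The scale of the libraries bears on the first count: 9 of the 10 genes were lower in YFP- than in unstimulated cells when libraries were centred on their medians, quantile normalized, scaled by a trimmed mean or scaled to totals without rRNA-like features, with Ncr1, Lck and Lat added. Without 1 library or label it was 4 to 6, and the calls lost were those of Hcst and Fcer1g. Over all genes, lower calls in that comparison numbered 2586 of 12364, and 3183 to 3439 under these 4 scalings. Among all called genes the higher ones were 59.1% in that comparison and 47.2 to 51.6% under these 4 scalings. For YFP+ against YFP- they were 15.1%, and 14.1% with totals without rRNA-like features. They were 41.1 to 50.2% when libraries were centred, quantile normalized or scaled by a trimmed mean. Centring, quantile normalization and trimmed-mean scaling moved the median of all genes there from −0.19 to between 0.0017 and 0.07. With totals without rRNA-like features it was −0.20. The counts of the 10 genes stayed at 5 or 6.

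**Figure D1:**
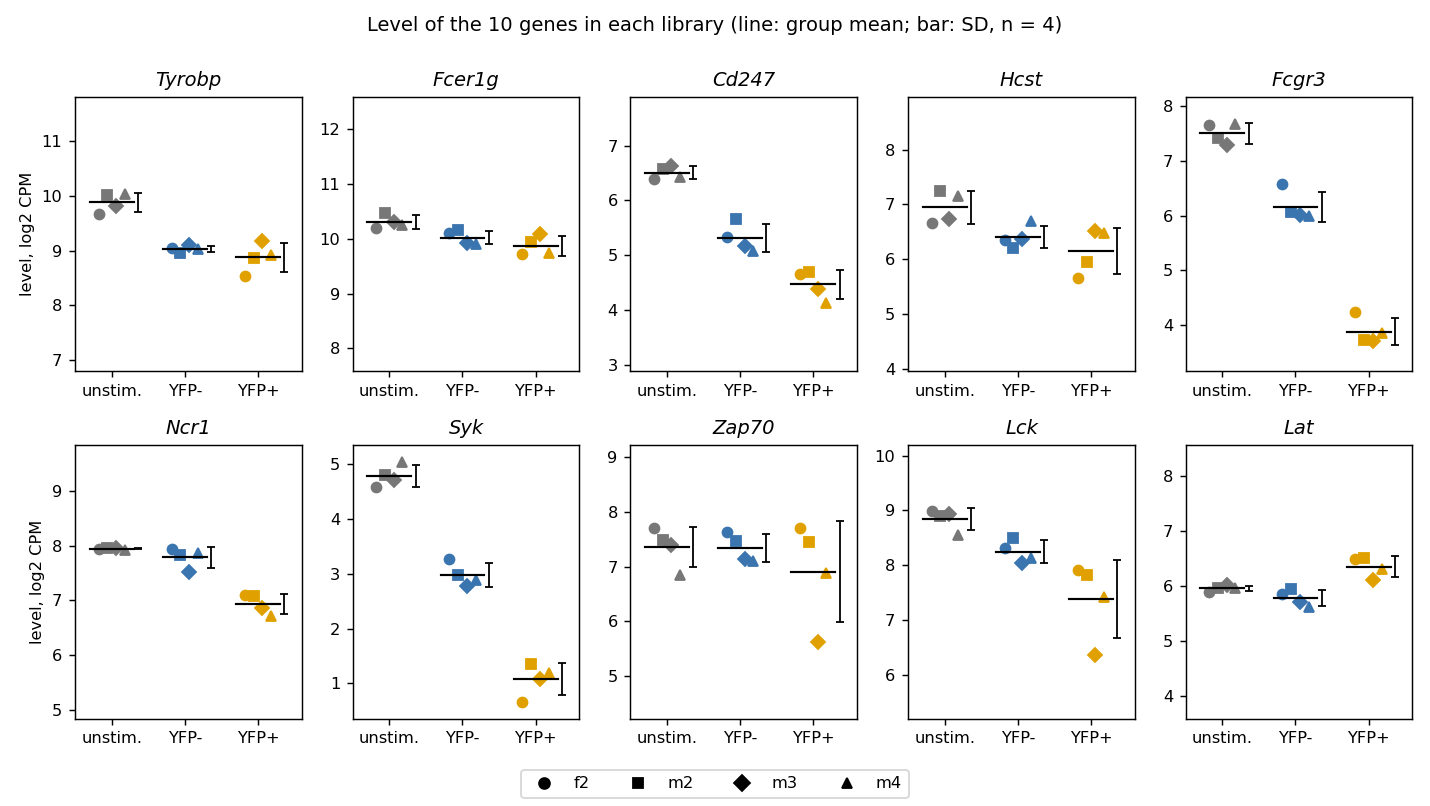
Level of each of the 10 genes in the 12 libraries, as log2 CPM on the vertical axis, by group on the horizontal axis. Symbols mark the labels f2, m2, m3 and m4, lines the group means and bars the SD (n = 4); every panel spans 5 log2 units. Fcgr3, Syk and Cd247 step down from group to group without overlap, Lat is highest in YFP+ libraries, and the YFP+ m3 library is lowest for Zap70 and Lck.

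**Figure D2:**
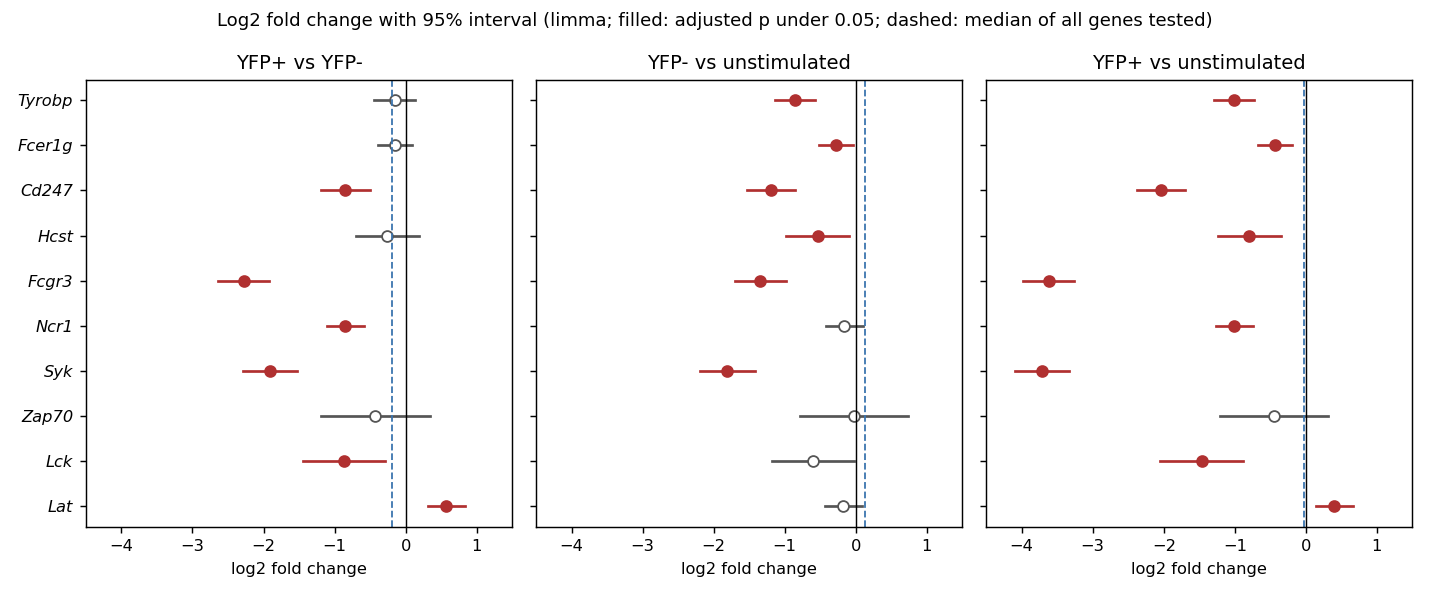
Log2 fold change of each gene (horizontal axis) in the 3 comparisons, with its 95% interval from limma. Filled points passed an adjusted p of 0.05 and the dashed line is the median of all 12364 genes tested; Fcgr3 and Syk lie farthest to the left in each panel, and Zap70 is open in all 3.

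The adaptors fell by unequal amounts. Between unstimulated and YFP+ cells Cd247 fell most and Fcer1g least. Cd247 was at 84.1, 95.5, 99.4 and 85.6 CPM in the unstimulated libraries f2, m2, m3 and m4, at 40.2, 50.8, 36.1 and 33.9 in the YFP- libraries and at 25.3, 25.7, 20.9 and 17.6 in the YFP+ libraries. The 3 groups did not overlap, and every YFP- library lay between the others. Cd247 fell by 1.19 on the log2 scale in YFP- cells against unstimulated ones (SE 0.16, limma adjusted p = 4e-05). It fell by a further 0.85 from YFP- to YFP+ cells (SE 0.16, limma adjusted p = 0.0019), and YFP+ cells had 4.11-fold less than unstimulated cells (limma adjusted p = 1.4e-07). Of its 5329 exon bases, 3007 (56.4%) overlap exons of Pou2f1, a transcription factor gene on the opposite strand, and the labels do not say that counting used strand. Pou2f1 itself was at 2.65 to 13.6 CPM over the 12 libraries, and without strand the reads of shared exons cannot be told apart. Its own log2 difference was −1.11 between YFP+ and YFP- cells and 0.59 between YFP- and unstimulated cells (limma adjusted p = 0.039 and 0.18).

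Tyrobp was at 814, 1031, 902 and 1054 CPM in unstimulated f2, m2, m3 and m4, at 527, 496, 547 and 525 in YFP- and at 373, 464, 579 and 487 in YFP+ libraries. The unstimulated libraries all lay above the rest, while the YFP- and YFP+ ranges overlapped. Tyrobp fell by 0.85 in YFP- cells (SE 0.13, limma adjusted p = 0.00013) and by 1.01 in YFP+ cells (SE 0.13, limma adjusted p = 1.6e-05) against unstimulated cells. From YFP- to YFP+ the difference was −0.16 (95% interval −0.44 to 0.13, limma adjusted p = 0.43), with −0.26 when YFP+ m3 was left out and −0.04 when YFP+ f2 was (limma adjusted p = 0.17 and 0.80).

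Fcer1g, the most abundant of the 10 in reads, was at 1168, 1422, 1266 and 1219 CPM in the unstimulated libraries, 1097, 1144, 969 and 962 in the YFP- libraries and 841, 977, 1091 and 855 in the YFP+ libraries. The unstimulated libraries all lay above the others, and the 2 stimulated groups overlapped. The fall was 1.35-fold in YFP+ against unstimulated cells (log2 −0.44, SE 0.11, limma adjusted p = 0.0037). YFP- cells had 1.22-fold less than unstimulated ones (log2 −0.28, SE 0.11, limma adjusted p = 0.046), a call lost without unstimulated m2, m3 or m4, without YFP- f2, m3 or m4, or without any 1 label (limma adjusted p = 0.055 to 0.14). Between YFP+ and YFP- the difference was −0.15 (95% interval −0.39 to 0.09, limma adjusted p = 0.35), or −0.23 without YFP+ m3 (limma adjusted p = 0.17).

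Hcst, the phosphoinositide 3-kinase adaptor, was at 101, 152, 106 and 141 CPM in unstimulated, 81.8, 74.1, 82.7 and 103 in YFP- and 50.6, 61.5, 91.6 and 88.9 in YFP+ libraries. YFP- m4 lay above unstimulated f2, so these groups touched, and YFP+ libraries all lay below the unstimulated ones. Hcst fell by 0.54 in YFP- (SE 0.20, limma adjusted p = 0.04) and by 0.79 in YFP+ cells (SE 0.20, limma adjusted p = 0.0039) against unstimulated cells. The first fall did not pass without unstimulated m2 or m4, YFP- f2, m2 or m3, or label m2, m3 or m4 (−0.37 to −0.60, limma adjusted p = 0.05 to 0.24). YFP+ differed from YFP- by −0.26 (95% interval −0.69 to 0.18, limma adjusted p = 0.40), by −0.38 without YFP+ m3 and by −0.09 without YFP+ f2, neither of which passed. These uncalled differences of Tyrobp, Fcer1g and Hcst turned to 0.11, 0.11 and 0.01 when libraries were centred on their medians.

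Both receptors were lowest in YFP+ cells, but Fcgr3 was already lower in YFP- cells. Fcgr3 stood at 200.4, 171, 156 and 204 CPM in unstimulated f2, m2, m3 and m4, at 95.5, 67.0, 64.7 and 63.4 in YFP- and at 19.0, 13.2, 13.1 and 14.5 in YFP+ libraries. No 2 groups overlapped, and f2 was the highest library within each stimulated group. Fcgr3 fell by 1.34 from unstimulated to YFP- cells (SE 0.17, limma adjusted p = 2.4e-05) and by 2.28 from YFP- to YFP+ cells (SE 0.17, limma adjusted p = 2.5e-06). YFP+ cells had 12.3-fold less than unstimulated cells (limma adjusted p = 1.8e-09). Fcgr3 has close relatives nearby whose reads the authors' counting could split or share; of these the inhibitory Fcgr2b was at 0.28 to 1.89 CPM and Fcgr4 at 7 reads or fewer in every library.

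Ncr1 was at 245.7, 248.4, 248.8 and 243.8 CPM in the unstimulated libraries, 245.0, 227, 182 and 234 in the YFP- libraries and 138, 135, 116 and 105 in the YFP+ libraries. Unstimulated and YFP- libraries overlapped, and every YFP+ library lay below both. Ncr1 fell by 0.85 from YFP- to YFP+ cells (SE 0.12, limma adjusted p = 0.00029), 1.80-fold, and by 1.01 from unstimulated to YFP+ cells (SE 0.12, limma adjusted p = 7.8e-06). YFP- differed from unstimulated cells by −0.16 (95% interval −0.42 to 0.10, limma adjusted p = 0.29); under the 4 other scalings this was −0.27 to −0.43 and passed.

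Of the kinases that dock on ITAMs, Syk fell steeply and Zap70 passed in no comparison. Syk was at 24.0, 27.8, 26.1 and 33.0 CPM in unstimulated f2, m2, m3 and m4, at 9.64, 7.86, 6.84 and 7.38 in YFP- and at 1.57, 2.54, 2.10 and 2.27 in YFP+ libraries. The 3 groups were far apart, and the YFP+ values rest on 73 to 138 reads a library. Syk fell by 1.81 from unstimulated to YFP- cells (SE 0.18, limma adjusted p = 3.4e-06) and by 1.91 from YFP- to YFP+ cells (SE 0.18, limma adjusted p = 1.4e-05). The whole fall, from unstimulated to YFP+, was 13.1-fold (log2 −3.71, SE 0.18, limma adjusted p = 2.4e-09).

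Zap70, the relative of Syk used by T cells and also by NK cells, was at 207.5, 180, 169 and 115 CPM in unstimulated, 198, 177, 141 and 138 in YFP- and 207.3, 174, 49.0 and 117 in YFP+ libraries. All 3 groups overlapped, and YFP+ m3 was the lowest library by a wide margin. YFP- cells differed from unstimulated ones by −0.03 (95% interval −0.79 to 0.74, limma adjusted p = 0.96) and YFP+ cells by −0.45 (−1.21 to 0.31, limma adjusted p = 0.29). Between YFP+ and YFP- the difference was −0.43 (−1.19 to 0.34, limma adjusted p = 0.43). Without the YFP+ m3 library the last was 0.005 (limma adjusted p = 0.99) and YFP+ against unstimulated −0.02.

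Lck, the Src family kinase that phosphorylates ITAMs, was at 508, 478, 492 and 376 CPM in unstimulated, 317, 363, 262 and 279 in YFP- and 240.2, 227, 82.0 and 171 in YFP+ libraries. The ranges did not overlap, with YFP+ m3 again lowest and unstimulated m4 the lowest of its group. Lck fell by 1.47 from unstimulated to YFP+ cells (SE 0.27, limma adjusted p = 0.00033) and by 0.87 from YFP- to YFP+ cells (SE 0.27, limma adjusted p = 0.035). Without the YFP+ m3 library the latter was −0.53 (limma adjusted p = 0.03). Without the YFP+ m4, YFP- f2, YFP- m2 or YFP- m4 library, or without label f2, m2 or m4, it was −0.78 to −1.02 and did not pass (limma adjusted p = 0.052 to 0.12), nor did it with libraries centred on their medians (−0.60, limma adjusted p = 0.058). The fall from YFP- to YFP+ also did not pass with only those 8 libraries, no filter on low values or no intensity trend (limma adjusted p = 0.081, 0.26 and 0.053). YFP- against unstimulated cells gave −0.60 (95% interval −1.18 to −0.02, limma adjusted p = 0.077). Under the 4 other scalings it was −0.71 to −0.81 and passed (limma adjusted p = 0.0037 to 0.018), as it did with the 8 libraries of that comparison alone (limma adjusted p = 0.0016).

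Lat, the membrane scaffold that Zap70 and Syk phosphorylate, was the single gene of the 10 that was higher in YFP+ cells. It was at 59.5, 62.0, 64.9 and 62.0 CPM in unstimulated f2, m2, m3 and m4, at 57.8, 61.4, 52.2 and 49.0 in YFP- and at 89.5, 91.5, 68.6 and 79.5 in YFP+ libraries. Every YFP+ library lay above all others, and the other 2 groups overlapped. Lat rose by 0.57 from YFP- to YFP+ cells (SE 0.12, limma adjusted p = 0.0043), 1.49-fold, and by 0.40 from unstimulated to YFP+ cells (SE 0.12, limma adjusted p = 0.012). The second rise did not pass with totals without rRNA-like features (0.21, limma adjusted p = 0.085), or without label f2 or m2 (limma adjusted p = 0.086 and 0.080). YFP- differed from unstimulated cells by −0.18 (95% interval −0.44 to 0.08, limma adjusted p = 0.24), a difference that passed as a fall under the 4 other scalings (−0.29 to −0.43).

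Ratios of 2 genes within a library do not depend on its total, and 4 were formed for 3 comparisons each. The p-values are from 2-sided exact permutation tests of 4 against 4 libraries, adjusted over 12 tests, and 0.0286 is the smallest p this design allows (0.0343 adjusted). Reads of Fcer1g per read of Cd247 had a geometric mean of 13.9 in unstimulated (12.7 to 14.9), 26.1 in YFP- (22.5 to 28.4) and 42.3 in YFP+ libraries (33.3 to 52.2). The 3 ranges did not overlap, and each step reached the smallest exact p (0.0343 adjusted; log2 differences 0.91 and 0.69).

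Syk reads per Zap70 read were 0.168 in unstimulated (0.116 to 0.287), 0.0487 in YFP- (0.0445 to 0.0536) and 0.0174 in YFP+ libraries (0.00759 to 0.0428). Both steps down reached the smallest exact p (0.0343 adjusted; log2 −1.78 and −1.49), and the YFP+ spread was wide, with m3, low in Zap70, the highest. Without YFP+ m3 the second step was −1.92, and without YFP+ f2 it was −1.09. With a pseudocount of 1 CPM it was −1.10 and with quantile normalization −1.20, and it did not pass the exact permutation test then (adjusted p = 0.156 and 0.0762).

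Fcgr3 reads per Ncr1 read were 0.736 in unstimulated (0.626 to 0.835), 0.324 in YFP- (0.271 to 0.390) and 0.121 in YFP+ libraries (0.0980 to 0.138). All 3 differences reached the smallest exact p (0.0343 adjusted; log2 −1.18 for the first step and −1.43 for the second). The adaptor pair that the genome holds side by side moved less: Hcst reads per Tyrobp read were 0.130, 0.162 and 0.151. The ratio was higher in YFP- than in unstimulated libraries (log2 difference 0.31, exact permutation p = 0.0343 adjusted), but not after quantile normalization (0.22, exact adjusted p = 0.137). YFP+ against unstimulated gave 0.21 and YFP+ against YFP- gave −0.10 (exact permutation adjusted p = 0.187 and 0.514).

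**Figure D3:**
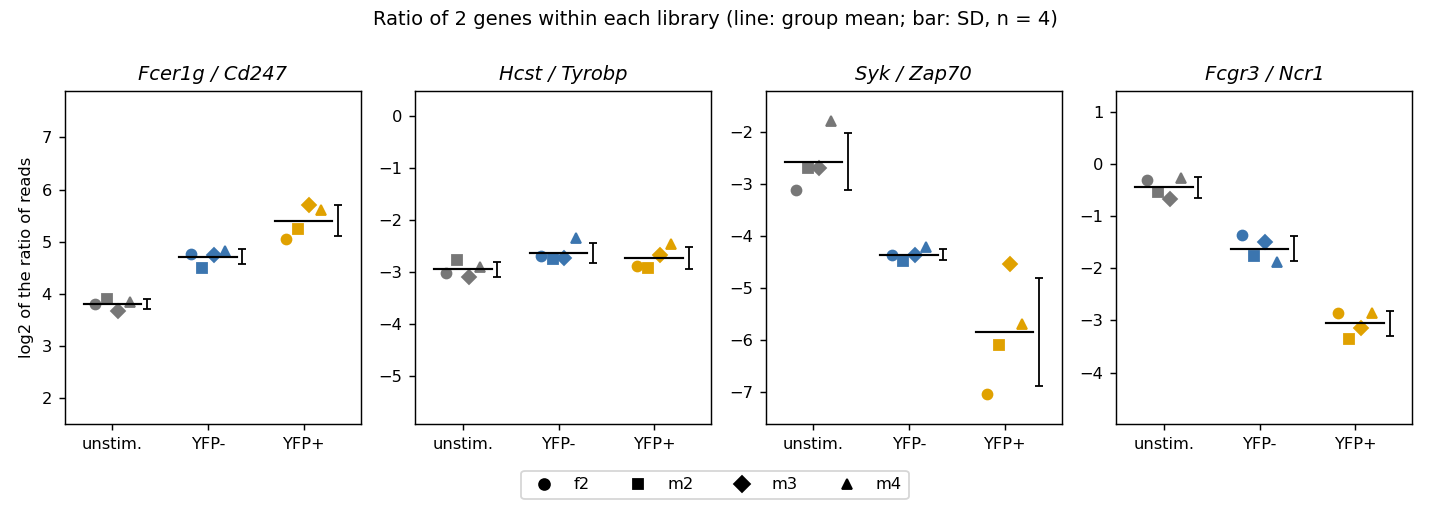
Log2 of the ratio of reads of 2 genes within each library (vertical axis) by group (horizontal axis), with group mean and SD (n = 4); every panel spans the same number of log2 units. Fcer1g over Cd247 rises from group to group, Syk over Zap70 and Fcgr3 over Ncr1 fall, and Hcst over Tyrobp overlaps between YFP- and YFP+ libraries.

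Compared per exon length, as RPKM (reads per kilobase of exon and 1 M reads), the adaptor genes Fcer1g and Tyrobp led in every group. In unstimulated libraries Fcer1g (mean 1452 RPKM) and Tyrobp (1424) overlapped and stood apart from Hcst (173), Ncr1 (160.2) and Lck (158), whose neighbours overlapped. Fcgr3 (105), Zap70 (56.2), Lat (22.4), Cd247 (17.1) and Syk (2.96) followed without overlap between neighbours. In YFP- libraries Fcer1g (1193 RPKM) and Tyrobp (785) no longer overlapped, and Ncr1 (144), Hcst (118) and Lck (104) did between neighbours. Zap70 (54.6) and Fcgr3 (41.8) overlapped there too, and Lat (19.9), Cd247 (7.56) and Syk (0.847) came last.

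In YFP+ libraries the order was Fcer1g (1077 RPKM), Tyrobp (713), Hcst (101), Ncr1 (80.1), Lck (61.5), Zap70 (45.8), Lat (29.7), Fcgr3 (8.61), Cd247 (4.20) and Syk (0.227). Neighbours from Hcst to Lat overlapped, and the rest did not. Fcgr3 thus moved from above Zap70 and Lat to below both. The place of Cd247 is uncertain, since over the 2322 exon bases it does not share with Pou2f1 its mean would be 39.2, 17.3 and 9.64 RPKM if all its reads came from them.

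**Figure D4:**
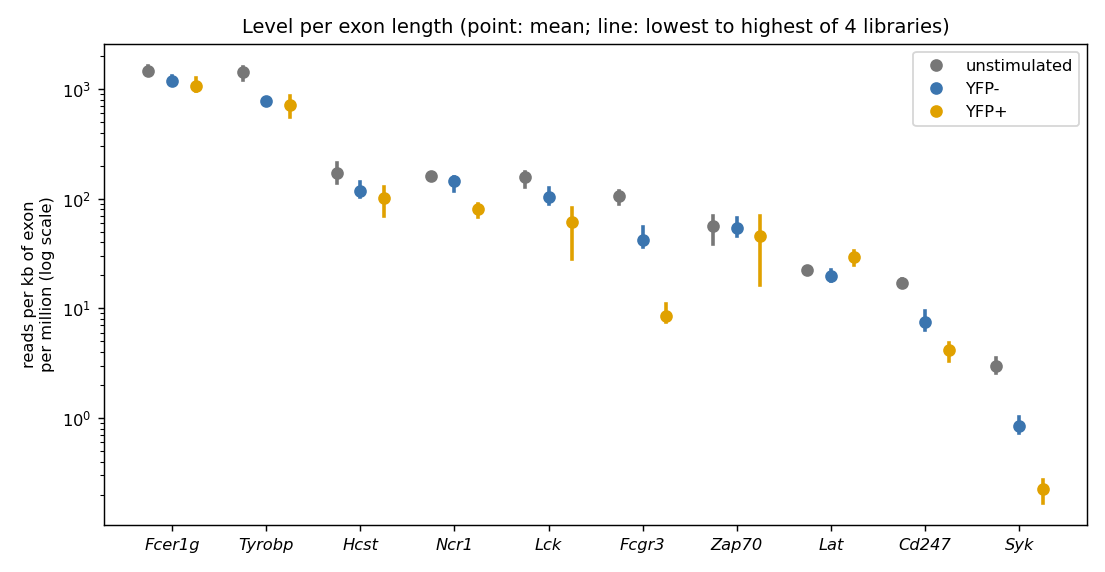
Level per exon length in RPKM (vertical log axis) for the 10 genes, ordered by their unstimulated mean; points are means and lines run from the lowest to the highest of 4 libraries. The gap between the first and last gene widens from unstimulated to YFP+ cells as Syk falls and Fcer1g stays at 962 RPKM or more in every library.

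Receptors that use these adaptors were followed as a list of 9, of which 7 were tested, since Fcgr1 and Fcgr4 were too low. In YFP+ against YFP- cells 6 of the 7 fell and 0 rose, with a median log2 difference of −0.94. Over all genes tested 18.5% were lower and 3.28% higher in that comparison, with a median of −0.19. Klrb1c, which encodes NK1.1, fell by 2.05 from unstimulated to YFP- cells (limma adjusted p = 8.7e-06) and by 3.59 from YFP- to YFP+ cells (limma adjusted p = 1e-06). Its level was 290.2 to 327.2 CPM without stimulation, 57.6 to 86.6 CPM in the YFP- group and 3.70 to 8.97 CPM in the YFP+ group. Of its relatives, Klrb1f rose by 0.77 in YFP- against unstimulated cells and Klrb1a fell by 0.66 (limma adjusted p = 0.014 and 0.0055), and from YFP- to YFP+ they fell by 2.89 and by 1.62 (limma adjusted p = 5.1e-06 and 3.8e-05).

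The Klrb1 and Klra genes belong to families of similar sequence, so that reads could be split among copies. Klrk1 (NKG2D), which pairs with Hcst and Tyrobp, rose by 0.58 in YFP- and by 0.33 in YFP+ cells against unstimulated cells (limma adjusted p = 0.0012 and 0.025). Between YFP+ and YFP- its difference was −0.24 (95% interval up to 0.01, limma adjusted p = 0.16). The Tyrobp-coupled receptors Klra4, Klra8 and Klrc2 fell from YFP- to YFP+ cells by 0.77, by 0.93 and by 0.94 (limma adjusted p = 0.0005, 0.00044 and 0.027). Klrc2 was uneven, at 16.8, 17.1, 7.21 and 8.49 CPM in YFP+ f2, m2, m3 and m4, and overlapped the YFP- libraries (16.75 to 24.3 CPM). Against unstimulated cells its YFP+ difference was −0.36 (limma adjusted p = 0.28). In YFP- against unstimulated cells, 2 of the 7 receptors rose (Klrb1f and Klrk1) and 2 fell, with a median of 0.12, near the 30.2% higher, 20.9% lower and median of 0.14 over all genes. In YFP+ against unstimulated cells 1 rose and 5 fell, with a median of −0.82, beside 27.5% higher, 33.3% lower and a median of −0.03 over all genes.

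Other genes of proximal signalling were followed as a list of 54, of which 47 were tested. The 10 genes are not in it. In YFP- against unstimulated cells 9 rose and 19 fell (median log2 difference −0.24), in YFP+ against unstimulated cells 5 rose and 26 fell (−0.61), and in YFP+ against YFP- cells 1 rose and 18 fell (−0.45). Over all genes tested the shares higher and lower were 30.2% and 20.9%, 27.5% and 33.3%, and 3.28% and 18.5%, with medians of 0.14, −0.03 and −0.19. The last count was 11 to 22 called genes when single libraries or labels were left out, with 11 without label m2 and 12 without label m4. Lcp2 (SLP-76), the adaptor that works with Lat, rose by 1.94 in YFP- and by 1.57 in YFP+ cells against unstimulated cells (limma adjusted p = 0.0012 and 0.0037), and the adaptor Sh3bp2 by 1.45 and by 0.98 (limma adjusted p = 0.0014 and 0.013). The YFP+ libraries f2, m2, m3 and m4 were uneven, at 450, 357, 108 and 140 CPM for Lcp2 and 61.4, 54.8, 22.3 and 23.1 for Sh3bp2.

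By the rule for named genes, which needs a mean log2 CPM of 2 or more, the falls to name in YFP- against unstimulated cells were those of the phosphoinositide 3-kinase catalytic subunit Pik3cg (−1.78), the calcium release channel Itpr3 (−1.70) and the adaptor Skap1 (−1.54). In YFP+ cells they were −2.85, −2.66 and −2.77, with limma adjusted p of 4.8e-05 or less in both comparisons. Rasgrp2, a Ras family activator below that level and named after its values were seen, fell by 2.74 and by 4.21 (limma adjusted p = 3.6e-05 and 3.3e-07). Its YFP+ values rest on 6 to 26 reads a library, so the size of the second fall is uncertain. From YFP- to YFP+ cells the docking protein Gab3 fell by 1.63, the Tec family kinase Txk by 1.48 and the Ras activator Rasgrp1 by 1.30 (limma adjusted p = 0.00031, 0.013 and 0.00016). Txk was at 94.9, 94.6, 25.7 and 28.4 CPM in the YFP+ libraries f2, m2, m3 and m4. Fyn, a Src family kinase related to Lck, was the 1 gene of the list that rose from YFP- to YFP+ cells, by 0.56 (limma adjusted p = 0.02), from 81.4 to 102 CPM in YFP- to 107 to 183 in YFP+ libraries. That call was lost with only the 8 libraries of the comparison, with no filter on low values, without YFP- m3 or YFP+ m4, or without label m2, m3 or m4 (limma adjusted p = 0.051 to 0.11). With libraries centred on their medians 4 of the 47 list genes tested were higher, beside 1505 of 12364 over all genes. With trimmed-mean scaling 3 were higher, beside 1172 over all genes. Before these scalings it was 1, beside 405 over all genes.

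**Figure D5:**
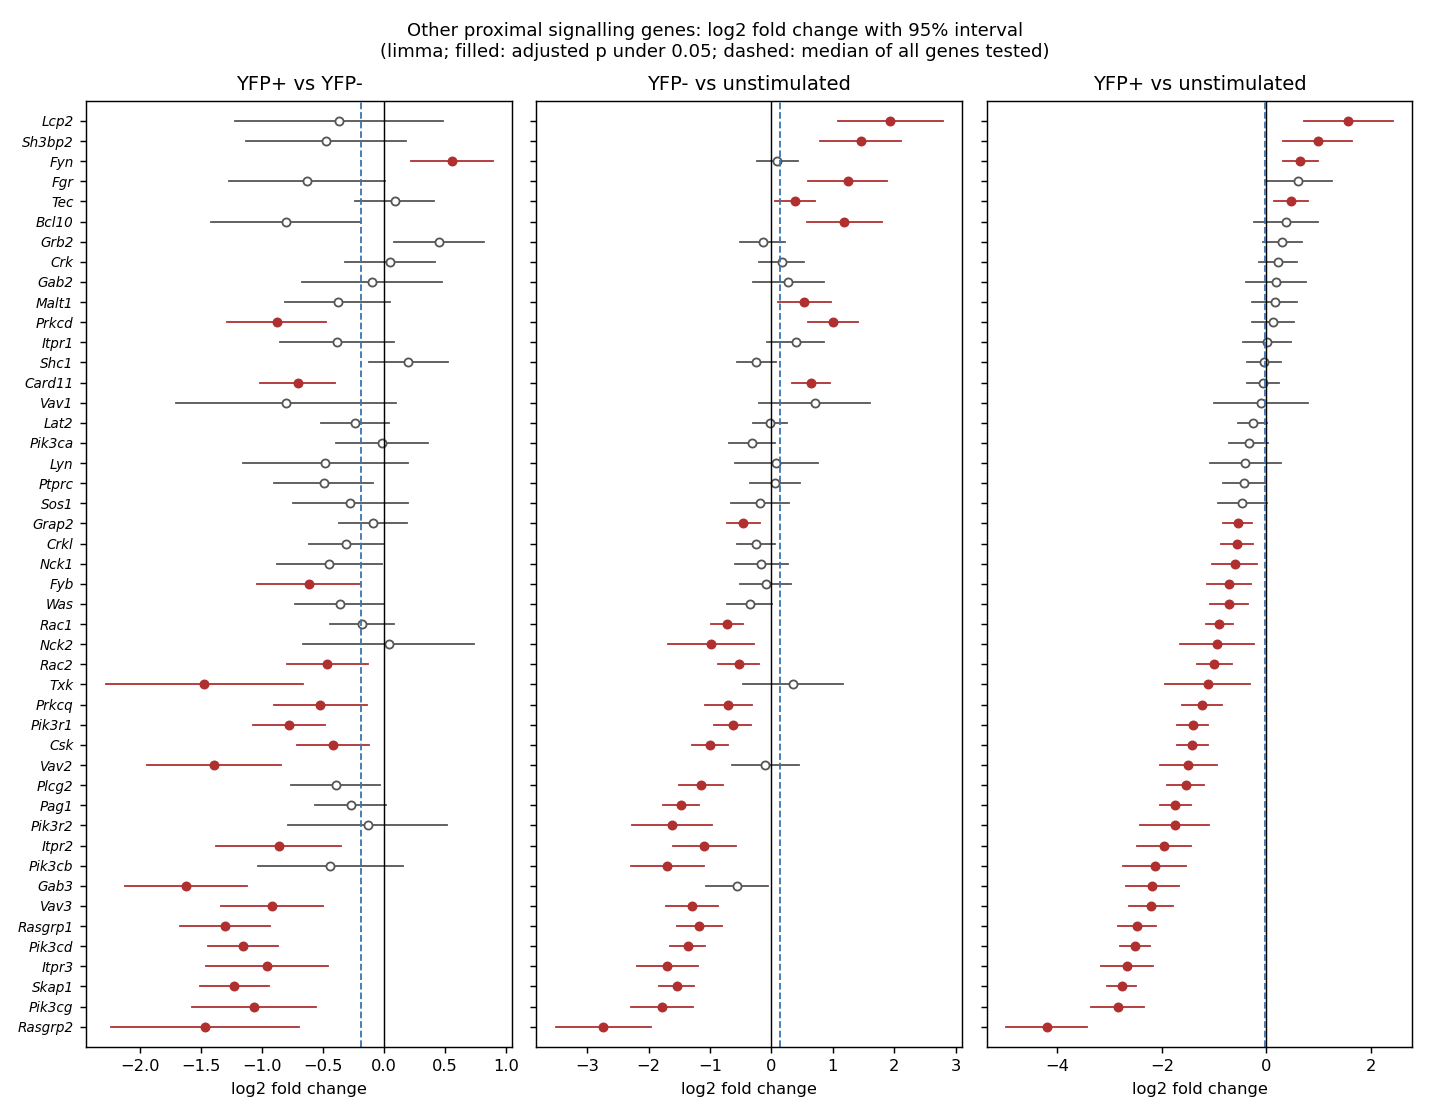
Log2 fold change with 95% interval (horizontal axis) of other proximal signalling genes that were tested, ordered by YFP+ against unstimulated cells. Filled points passed a limma adjusted p of 0.05 and the dashed line is the median of all genes tested; Lcp2 and Sh3bp2 lie to the right against unstimulated cells while Rasgrp1, Rasgrp2, Pik3cg, Pik3cd and Itpr3 lie to the left. Horizontal axes differ between panels.

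Syk, Fcgr3, Fcer1g and Tyrobp are also expressed by myeloid cells, and Cd247, Zap70, Lck and Lat by T cells. The summed level of 11 myeloid markers was 53.2 to 60.8 CPM without stimulation, 27.4 to 44.5 CPM in the YFP- group and 14.8 to 24.1 CPM in the YFP+ group, the same order of groups as for Syk and Fcgr3. Only Cd14 and Cd68 of the 11 passed the filter on low values. Cd68 made up most of it, and without it the sum was 1.57 to 3.68, 0.571 to 1.54 and 0.307 to 0.746 CPM. The defining markers were at or near 0: S100a9 had 0 reads in all 12 libraries, Adgre1 at most 1, Csf1r at most 12 and Lyz2 at most 32.

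For T cells, 5 of 10 markers passed the filter, and the summed level of the 10 was 513 to 582, 742 to 846 and 836 to 944 CPM. Trbc1 and Trbc2 made up most of it, and without them the sums overlapped at 52.8 to 112.6, 68.1 to 93.9 and 63.9 to 96.1 CPM. That remainder held genes that moved in opposite directions. Trac was at 6.83 to 8.47 CPM without stimulation, 27.6 to 41.9 in the YFP- group and 40.4 to 54.5 in the YFP+ group, and rose 4.56-fold and 6.48-fold in these groups against unstimulated cells (limma adjusted p = 1.9e-07 and 1e-08). Cd3g was at 30.9 to 79.4, 24.4 to 41.7 and 11.7 to 31.9 CPM and Cd3d at 14.2 to 25.9, 12.8 to 20.6 and 7.25 to 13.8 CPM. Both fell in YFP+ against unstimulated cells, by 1.22 and by 0.77 (limma adjusted p = 0.0059 and 0.012). The part of these markers in the results was not tested. Cd4, Cd8a and Cd8b1 had at most 7 reads and Cd3e at most 66. Of 6 B cell markers 2 passed, and the 6 summed to 131 to 189, 174 to 324 and 57.1 to 168 CPM, nearly all from Ighm, while Ms4a1 and Pax5 had at most 2 reads each. Fcer1g is also a chain of the mast cell IgE receptor, whose other chains Fcer1a and Ms4a2 had at most 14 and 2 reads, while the basophil protease gene Mcpt8 was at 8.36 to 26.8 CPM.

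Across the 12 libraries, the genes most like each of 5 members were sought among 8222 protein-coding genes by Pearson's r of log2 CPM. The libraries of a group share their treatment, so r reflects differences between groups as well as within them and is given as a description. Tyrobp was most like Ndufv3 (0.98), Ccni (0.98) and Dnajc15 (0.98), and Fcer1g most like Cblb (0.98), Higd2a (0.96) and Ap1s2 (0.96). Cd247 was most like Lef1 (0.995), Ebp (0.99) and Myo1f (0.99), and Syk most like Arrb1 (0.99), Map3k3 (0.99) and Zbtb4 (0.99). Zap70 was most like Coasy (0.98), Tmem175 (0.98) and Ift52 (0.96).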

How the data were processed

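The authors deposited 1 table of log2 CPM (moderated reads per 1 M reads, on a log2 scale) for 12 libraries, per the file headers. Per the labels' protocols, the SMARTer Ultra Low kit made cDNA from 10 ng of RNA, read as 150-base paired ends. STAR 2.7.9a, featureCounts 2.0.3 and GRCm38 are named in the submitters' processing notes; annotation and strand setting are not given in the sources used here. Of 55774 lines, 287 repeats were dropped. Whole reads followed from the values (largest difference from the formula 5.15e-14), and 0 per-sample columns belonged to no sample.

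All 12 libraries were fitted together in limma 3.58.1 (R 4.3.3) with an intensity trend, contrasts between groups and Benjamini-Hochberg adjustment over 12364 genes; fold changes are on the deposited log2 scale. Library totals were 32.1 to 54.2 M reads, and 3 reads correspond to 0.0553 to 0.0933 CPM, counting error only. Ratios were tested with exact permutation tests in Python 3.11.15 (scipy 1.17.1). Gene positions came from GENCODE M21. Code was tested on made-up reads.

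The members and all lists were chosen with earlier results of these data known. All 10 members and all tested receptors are named. Of the other signalling list, up to 3 rises and 3 falls are named per comparison among called genes whose mean log2 CPM was 2 or more and that had 1 direction in all 4 label pairs; 1 such gene and 1 marker gene are not reported here. Genes of like pattern are the 3 of highest r per member. Replicate labels recur across groups, but libraries with the same label deviated together only in part, so the label is no term of the model. Pearson's r was 0.05 to 0.37 for YFP+ against YFP-, where m2, m3 and m4 matched their own label best. Against unstimulated libraries it was −0.06 to 0.10 for YFP- and −0.04 to 0.38 for YFP+. Alternatives were the replicate block, only the 8 libraries compared, filters, a pseudocount, quantile normalization, centring, trimmed-mean scaling, totals without 359 rRNA-like features, no trend, voom weights, library weights, a stricter threshold and leaving out libraries. Trimmed-mean scaling without YFP+ m3 was added after seeing the data.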

Additional observations from a re-analysis of the deposited data

Results flagged for a closer look

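Among the sets of 4 libraries checked for a far value, 2 of 48 were past Dixon's limit for the gap over the range, and chance alone gives about 1 in 20. Fcgr3 in YFP- libraries had a gap of 0.867 of the range, with f2 at 6.58 log2 CPM and the others at 5.99 to 6.07. The log2 ratio of Hcst to Tyrobp in YFP- libraries had a gap of 0.853 of the range, with m4 at −2.35 and the others at −2.74 to −2.69.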

How the results depend on the processing

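The fits of the 10 genes were repeated under 24 or 25 other settings per comparison. For YFP+ against YFP-, 232 of 250 values kept their direction and side of the threshold, 11 lost a call (all Lck) and 7 changed sign without a call. For YFP- against unstimulated, 197 of 240 kept both, 22 lost a call (Hcst 10, Fcer1g 12), 16 gained one (Lck 8, Ncr1 4, Lat 4) and 5 changed sign. For YFP+ against unstimulated, 246 of 250 kept both, 3 lost a call (Lat) and 1 changed sign. The sign changes for YFP+ against YFP- were Tyrobp (0.11 centred, 0.03 with trimmed-mean scaling), Fcer1g (0.11 and 0.039), Hcst (0.0055 centred) and Zap70 (0.005 without YFP+ m3, 0.16 with trimmed-mean scaling as well). Without single libraries or labels, Zap70 ran from −0.69 to 0.005 for YFP+ against YFP- and from −0.20 to 0.086 for YFP- against unstimulated. In YFP+ against unstimulated cells it was 0.018 with trimmed-mean scaling without YFP+ m3. The cause of these changes was not tested.

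With the replicate block, 6 of the 10 genes passed for YFP+ against YFP- (1 higher, 5 lower) and 7 for YFP- against unstimulated (0 higher, 7 lower). For YFP+ against unstimulated 9 passed (1 higher, 8 lower). Lck was added in the second comparison (limma adjusted p = 0.035). The other signalling genes gave 21 (1 higher, 20 lower), 28 (8 higher, 20 lower) and 33 (6 higher, 27 lower). Shares over all genes were not computed with the block. A paired exact sign-flip test of the ratios cannot go below 0.125 with 4 pairs. In it no ratio passed, whatever its log2 difference: Fcer1g/Cd247 0.69, 0.91 and 1.60, Hcst/Tyrobp 0.31 in the second comparison, Syk/Zap70 −1.49, −1.78 and −3.27, Fcgr3/Ncr1 −1.43, −1.18 and −2.61. Quantile normalization moved Hcst/Tyrobp to 0.0035 in the first comparison and 0.22 in the second, and Syk/Zap70 in the first to −1.20; a pseudocount of 1 CPM moved the latter to −1.10. Other signalling genes called for YFP+ against YFP- were 19, but 9 with no filter, 11 at an adjusted p under 0.01 and 11 to 22 without single libraries or labels. Over all genes, the share of higher calls for YFP+ against YFP- was 15.1%, but 50.2% centred, 44.9% quantile normalized and 41.1% with trimmed-mean scaling. With totals without rRNA-like features it was 14.1%.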
